A study of Mus musculus with 24 samples.

Results

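The 34 genes described here are known markers of cell division, 11 that act in S phase and 23 that act in mitosis, out of the 23017 genes measured in mouse brown adipose tissue. They were chosen by name, as textbook genes of DNA replication and of chromosome segregation, but with earlier results of these data known. All 34 had a row in the table. The study sequenced polyA RNA of brown fat of obese, insulin resistant mice (strain C57BL/6J), with 4 groups of 6 samples. Vehicle mice received the carrier. LAGIPRA mice received an agonist of the GIP receptor with a long duration of action. TZP mice received tirzepatide, which acts on the GIP and GLP-1 receptors. PairFedVehicle mice received the carrier and restricted food. The sources used here do not state doses, treatment times, ages or the group whose intake was matched. All 4 groups shared the strain, and the sample codes ran in blocks by group, so an effect of the order of handling cannot be told apart from treatment.

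A dividing cell first copies its DNA in S phase and later separates the copies in mitosis. S-phase genes build the replication machinery and its nucleotides, and are switched on largely by E2F transcription factors as a cell leaves G1. Mitotic genes peak later, in G2 and M, and many are repressed in resting cells through a promoter element called CHR and activated with the help of the CCAAT-binding factor NF-Y. Mature brown adipocytes rarely divide, and dividing cells in brown fat include preadipocytes, endothelial cells and immune cells.

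The promoters show how the 2 classes differ in letters. RefSeq windows on GRCm38.p6, from 250 bases before to 50 bases after a start, were found for 29 of the 34 members. Kif20a, Aurkb, Tpx2, Mcm4 and Ccna2 had none. The CHR word TTTGAA, searched on both strands, was in 14 of 19 mitotic members with a window and in 1 of 10 S-phase members, Mcm2, against 20.2% of all 27025 genes with a window (17.9% of all 32851 windows). CCAAT was in 17 of 19 mitotic and 8 of 10 S-phase members, against 41.1% of genes and 37.4% of windows. The E2F words searched were TTCCCGC, its variant TTGGCGC and its variant TTCGCGC. At least 1 of these 3 was in 3 of 19 mitotic and 5 of 10 S-phase members, against 9.2% of genes and 8.07% of windows. The CHR-like word TTCGAA, which reads the same on both strands, was in 3 mitotic members and 1 S-phase member, against 1.8% of genes and 1.56% of windows. A match is a word and not a proven binding site. The 250 bases before the start are shown for 3 mitotic and 2 S-phase genes as examples, with every one of these words in capitals on either strand. Mcm5 and Mcm6 do not stand for the whole S-phase class. Mcm2, Pcna, Rrm2, Tyms and Tk1, also named in the results below, hold none of the E2F words, and Mcm2 holds TTTGAA. The E2F words of Mcm3 all lie after the start. Where TTGGCGC and the reverse of TTCGCGC overlap, the capitals run together. Mki67 lies at chr7:135716380-135716629 (minus strand), Top2a at chr11:99024190-99024439 (minus), Cdk1 at chr10:69352913-69353162 (minus), Mcm5 at chr8:75109259-75109508 (plus) and Mcm6 at chr1:128359706-128359955 (minus).
Mki67: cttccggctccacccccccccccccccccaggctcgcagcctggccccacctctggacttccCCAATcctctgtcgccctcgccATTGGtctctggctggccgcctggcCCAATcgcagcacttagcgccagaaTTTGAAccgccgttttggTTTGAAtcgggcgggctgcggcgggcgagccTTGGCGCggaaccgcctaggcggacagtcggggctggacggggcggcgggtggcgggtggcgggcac
Top2a: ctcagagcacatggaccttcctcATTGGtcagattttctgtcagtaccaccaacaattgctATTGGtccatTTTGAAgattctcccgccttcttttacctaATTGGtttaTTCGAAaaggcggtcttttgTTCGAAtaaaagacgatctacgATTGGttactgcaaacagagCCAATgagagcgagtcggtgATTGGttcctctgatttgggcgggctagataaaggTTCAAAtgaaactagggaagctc
Cdk1: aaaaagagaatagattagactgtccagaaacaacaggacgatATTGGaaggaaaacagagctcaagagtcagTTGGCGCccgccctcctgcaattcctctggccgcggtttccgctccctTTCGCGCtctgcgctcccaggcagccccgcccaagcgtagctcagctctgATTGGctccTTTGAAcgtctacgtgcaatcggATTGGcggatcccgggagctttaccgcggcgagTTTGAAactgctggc
Mcm5: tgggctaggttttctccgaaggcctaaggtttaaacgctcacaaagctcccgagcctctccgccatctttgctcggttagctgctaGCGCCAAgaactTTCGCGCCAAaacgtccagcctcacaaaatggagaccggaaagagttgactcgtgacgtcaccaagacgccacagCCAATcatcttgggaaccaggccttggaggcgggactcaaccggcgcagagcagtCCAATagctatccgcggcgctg
Mcm6: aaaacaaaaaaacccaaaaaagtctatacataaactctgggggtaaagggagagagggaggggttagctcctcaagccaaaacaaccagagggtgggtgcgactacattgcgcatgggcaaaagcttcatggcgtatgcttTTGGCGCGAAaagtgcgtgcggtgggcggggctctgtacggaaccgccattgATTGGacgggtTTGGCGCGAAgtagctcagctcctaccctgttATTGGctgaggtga
In Mki67 and Cdk1 a pair of TTTGAA words stands with 3 CCAAT words, and each also holds TTGGCGC. Cdk1 holds the E2F word TTCGCGC as well. Top2a holds TTTGAA on each strand, a pair of TTCGAA words and 6 CCAAT words, and none of the E2F words. Mcm5 and Mcm6 hold overlapping E2F words and CCAAT, and neither holds TTTGAA. The same split was seen in related genes outside the 34: TTTGAA was in 27 of 42 other mitotic genes and 3 of 26 other replication genes, and an E2F word in 9 of 42 and 19 of 26. These lists were made with knowledge of the field, in which the words were described in such genes.

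Values are log2 values as deposited, on a scale taken to be log2 of a normalized value plus 1, so changes of weakly expressed genes are understated. Read totals were not given, and the depth is unknown. As a stand-in, the most frequent low value was taken as the level of 1 read. Before the log, with the offset removed, that level was 0.853 to 1.55 in Vehicle, 1.18 to 2.20 in LAGIPRA, 0.948 to 1.88 in TZP and 1.02 to 1.40 in PairFedVehicle. A higher level was taken to mean fewer reads. On the log2 scale the level was 0.890 to 1.68 over the 24 samples, and the only member value below that of its own sample was Bub1 in LAGIPRA sample 5. Brown adipocyte markers were present in all samples: the summed level of 12 markers, Ucp1 and Adipoq among them, was 16.7 to 17.6 on the log2 scale. In whole tissue, fewer dividing cells and less of these RNAs per cell cannot be told apart. The labels do not say whether the samples of a group came from separate animals, so p-values measure the spread between samples, which may be technical.

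Most of the cell division genes rose and fell together from sample to sample, within every group. Each member was centred on its mean over the 24 samples, and the centred values were averaged over each class. The mitotic mean was 0.55, 0.47, 1.21, 0.51, -0.83 and 0.74 in Vehicle samples 1 to 6. In LAGIPRA it was 0.11, -0.17, -0.26, -0.72, -0.96 and -0.51. In TZP it was -0.78, -0.45, 0.73, -0.41, 0.61 and 0.75. In PairFedVehicle it was -1.23, 0.43, 0.02, 0.64, 0.81 and -1.24. Vehicle sample 5 and PairFedVehicle samples 1 and 6 lay far below the rest of their groups, TZP fell into 3 high and 3 low samples, and only 1 LAGIPRA sample was above 0. Single members departed from their class. In LAGIPRA the mitotic mean was lowest in sample 5, but Mki67 was lowest in sample 2, and Mcm2 and Ttk in sample 3.

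**Figure D1:**
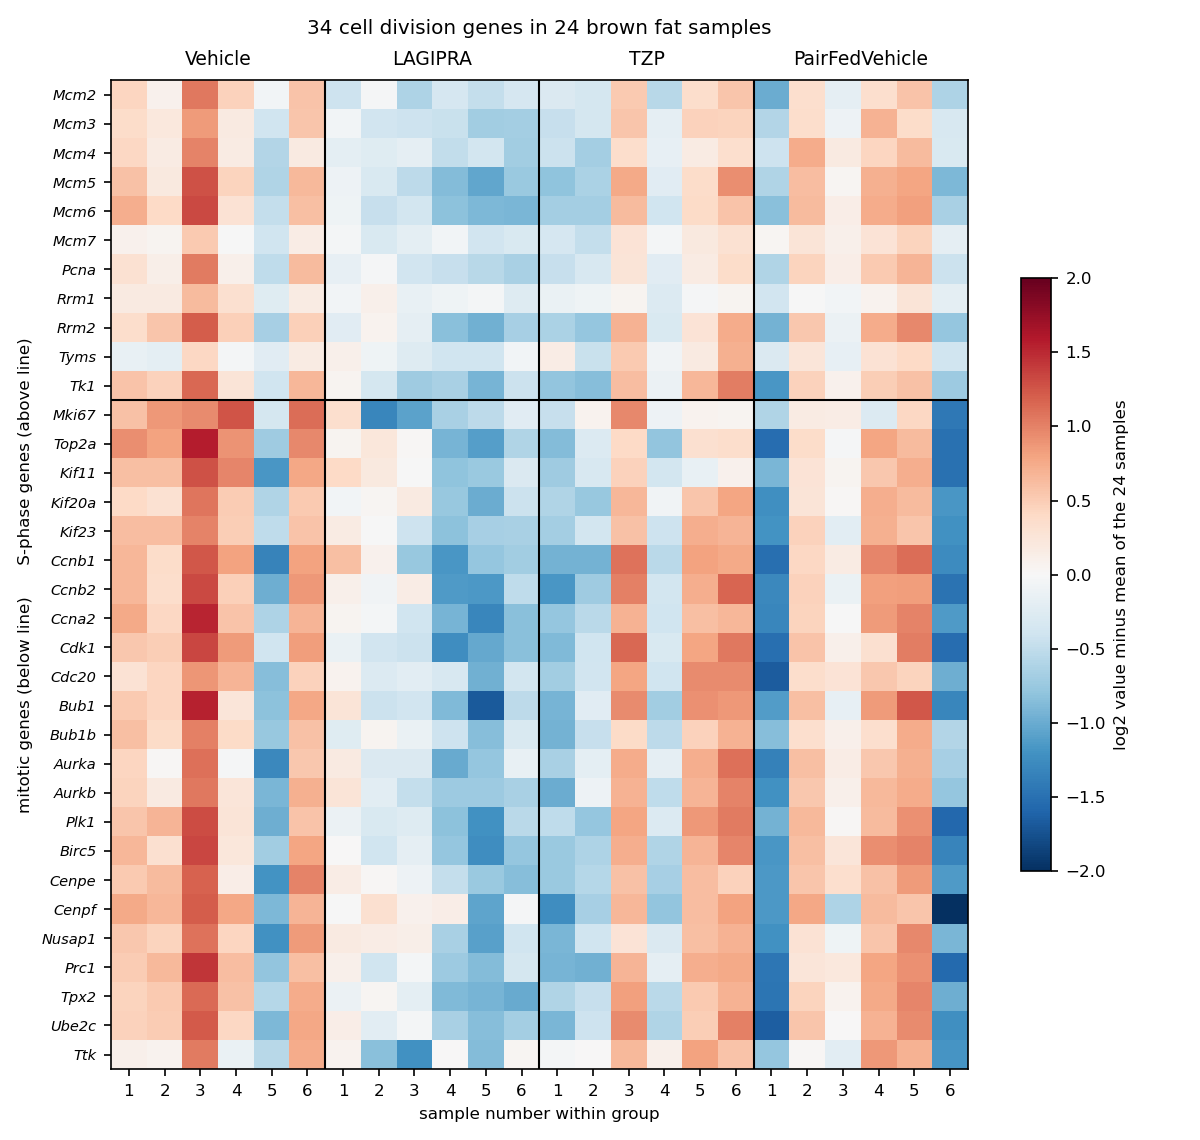
Log2 value of each of the 34 members (rows) in each of the 24 samples (columns, numbered within the 4 groups), minus the mean of that member over the 24 samples; red is above and blue below that mean. Most members of a column tend to share a colour, and Vehicle sample 5 and PairFedVehicle samples 1 and 6 are blue within groups that are otherwise mostly red.

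The S-phase mean followed the mitotic mean with a smaller swing. It was 0.35, 0.20, 0.95, 0.24, -0.41 and 0.44 in Vehicle, and -0.11, -0.18, -0.36, -0.49, -0.61 and -0.52 in LAGIPRA. It was -0.44, -0.51, 0.48, -0.23, 0.29 and 0.55 in TZP, and -0.62, 0.42, 0.00, 0.48, 0.59 and -0.50 in PairFedVehicle. Relative to the mean of their own group, the 2 class means lay on the same side in 21 of 24 samples. Single S-phase members did so with the mitotic mean in 17 to 22 samples (Mcm2 the fewest, Mcm5 and Rrm2 the most), against a median of 12 over all tested genes. At 20 or more samples were 7 S-phase members, against 6.48% of all tested genes. Mcm2, Mcm7, Rrm1 and Tyms fell short of that. From the lowest to the highest sample of a group, the mitotic mean spanned 4.10-fold in Vehicle, 2.09-fold in LAGIPRA, 2.88-fold in TZP and 4.15-fold in PairFedVehicle. The S-phase mean spanned 2.57-fold, 1.42-fold, 2.09-fold and 2.31-fold in the same groups. The mitotic mean thus had the wider range in every group.

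**Figure D2:**
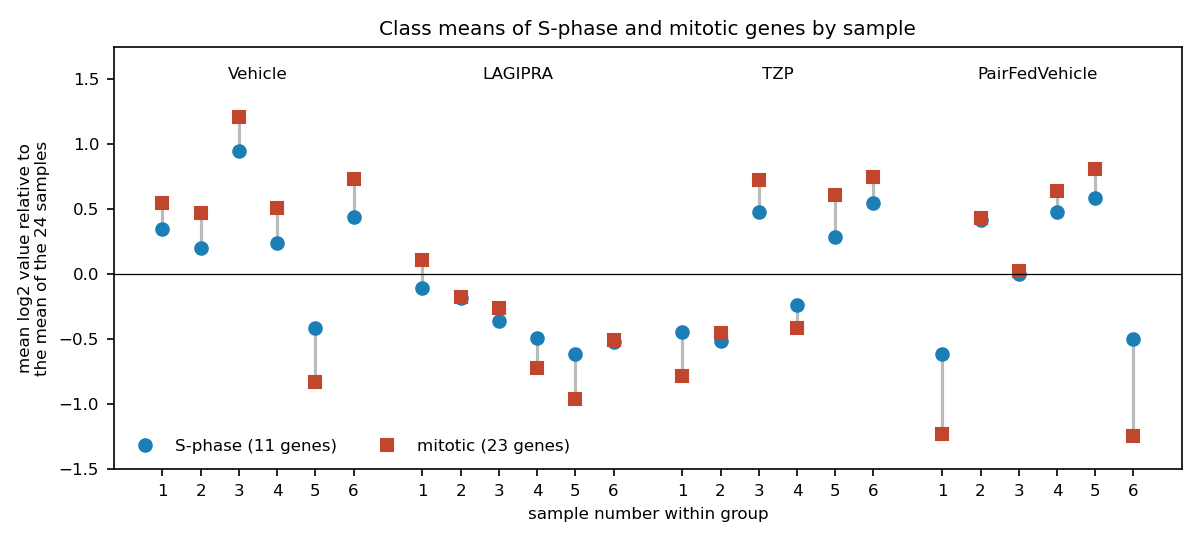
Mean of the 11 S-phase genes (circles) and of the 23 mitotic genes (squares) in each sample, as log2 relative to the mean of the 24 samples, with a line joining the 2 classes of a sample. In 21 of 24 samples both lie on the same side of their group mean, and in most samples the squares lie farther from 0 than the circles.

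Single samples set most of the extremes. Vehicle sample 5 held the lowest Vehicle value in 34 of 34 members, against 25.5% of all tested genes, and Vehicle sample 3 held the highest in 33 of 34, against 18.8%. In TZP samples 1, 2 and 4, 0 of 34 members were above the TZP mean, and in sample 3 all 34 were. PairFedVehicle sample 5 held the highest value in 26 members, and samples 1 and 6 shared the lowest, with 20 and 14 members. The share of all tested genes above the group mean ran only from 46.2% to 55.5% over the 24 samples.

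The class difference, S-phase mean minus mitotic mean, differed among the samples in which both were low. It reached 0.42 in Vehicle sample 5, 0.61 and 0.74 in PairFedVehicle samples 1 and 6, 0.34 in TZP sample 1 and 0.35 in LAGIPRA sample 5. It was -0.06 in TZP sample 2 and -0.02 in LAGIPRA sample 6, which were low in both classes too. By group it was -0.14 ± 0.28 (SD, n = 6) in Vehicle, 0.04 ± 0.21 in LAGIPRA, -0.05 ± 0.26 in TZP and 0.16 ± 0.41 in PairFedVehicle. The groups' means thus differed by no more than about the spread within them, and this difference was not tested.

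Spread within groups was larger for mitotic than for S-phase genes. The SD pooled over the 4 groups had a median of 0.74 over the 23 mitotic members, from 0.56 for Bub1b to 0.92 for Ccnb1. Over the 11 S-phase members the median was 0.43, from 0.20 for Rrm1 to 0.64 for Rrm2. The median of all tested genes was 0.26 and their 90th percentile 0.64. Weakly expressed genes spread more, so each member was also ranked among genes within 0.25 of its own mean level. By that ranking Birc5 was above 98.7% of genes of like level, Ube2c above 98.6%, Ccnb2 above 98.5% and Cdk1 above 98.0%. Rrm1 was above 48.2%, Tyms above 49.8% and Ttk above 34.6%, so not every member was unusually variable for its level.

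The SD was smallest in LAGIPRA in 31 of 34 members (11 S-phase, 20 mitotic), which held for 34.2% of all tested genes. It was largest in PairFedVehicle in 27 of 34 (5 S-phase, 22 mitotic), which held for 27% of all tested genes. The median SD of mitotic members was 0.71 in Vehicle, 0.47 in LAGIPRA, 0.69 in TZP and 0.98 in PairFedVehicle. That of S-phase members was 0.50, 0.23, 0.46 and 0.53. The differences in spread between groups were not tested, and members that move together are not independent counts.

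**Figure D3:**
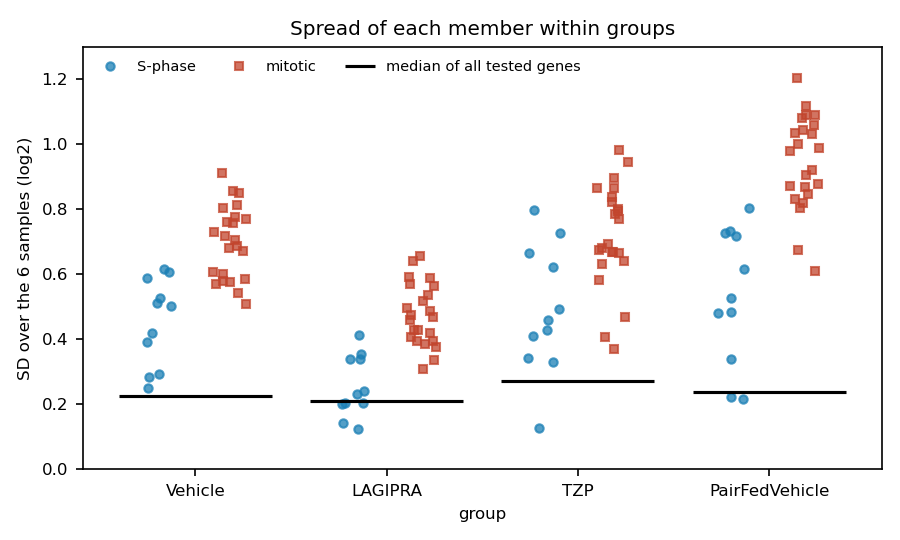
SD over the 6 samples of a group, on the log2 scale, for each S-phase (circles) and mitotic (squares) member, with the median of all tested genes as a black line. Mitotic members lie above that line in every group, lowest in LAGIPRA and highest in PairFedVehicle.

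The helicase genes Mcm2, Mcm3, Mcm5 and Mcm6 and the mitotic genes Mki67 and Cdk1 were lower in LAGIPRA than in Vehicle brown fat, and the other tested members did not pass. Of the 34 members, 31 passed the filter on low values, which left out the 25% of genes with the lowest mean. Of these 31, 6 were lower at an adjusted p under 0.05 and 0 were higher. Over all 17263 tested genes, 5.03% were lower, 8.7% were higher and 13.7% changed in either direction. The adjusted p is the Benjamini-Hochberg value over all tested genes from limma, two-sided. All 31 differences were below 0, as were 46.1% of all tested genes. At an unadjusted p under 0.05, 18 of the 31 were lower (9 of each class), against 13.8% of all tested genes. The median difference was -0.74 for S-phase and -0.87 for mitotic members, against 0.03 over all tested genes, and the median SE was 0.23, 0.40 and 0.15. Since the members move together, their shared sign is closer to a single observation than to 31.

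Of the S-phase genes, 4 of the 6 subunits of the MCM helicase, the ring that unwinds DNA at replication forks, fell. Mcm6 had a lowest, median and highest value of 5.29, 6.27 and 7.09 in Vehicle and 4.85, 5.13 and 5.68 in LAGIPRA. In TZP these were 5.08, 5.75 and 6.40, and in PairFedVehicle 4.93, 6.15 and 6.59. Vehicle sample 5 was the only Vehicle sample within the LAGIPRA range. Mcm6 was lower in LAGIPRA by 1.07 (log2 difference -1.07, SE 0.319, limma adjusted p = 0.0311), a level 0.476 times that of Vehicle.

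Mcm5 ran from 4.41 to 6.29 in Vehicle (median 5.54) and from 3.97 to 4.91 in LAGIPRA (median 4.39). It ran from 4.22 to 5.95 in TZP (median 5.09) and from 4.13 to 5.81 in PairFedVehicle (median 5.35). Again a single Vehicle sample, sample 5, lay among the LAGIPRA samples, while TZP and PairFedVehicle spanned nearly both ranges. The LAGIPRA difference was -1.02 (SE 0.339, limma adjusted p = 0.0470).

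Mcm2 ran from 4.56 to 5.68 in Vehicle (median 5.07), 4.0 to 4.60 in LAGIPRA (median 4.25), 4.06 to 5.18 in TZP (median 4.65) and 3.63 to 5.19 in PairFedVehicle (median 4.70). Its LAGIPRA difference was -0.79 (SE 0.249, limma adjusted p = 0.0383). Mcm3 ran from 4.83 to 6.07 in Vehicle (median 5.51), 4.52 to 5.15 in LAGIPRA (median 4.79), 4.76 to 5.78 in TZP (median 5.34) and 4.63 to 5.92 in PairFedVehicle (median 5.35). Both genes overlapped between LAGIPRA and Vehicle through Vehicle sample 5 alone. The LAGIPRA difference of Mcm3 was -0.74 (SE 0.226, limma adjusted p = 0.0334).

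The remaining S-phase members did not pass the test. Mcm4 differed by -0.58 (limma adjusted p = 0.0899). Mcm7, the sixth helicase subunit, differed by -0.28 (limma adjusted p = 0.189). Its gene span overlaps Ap4m1 and the microRNA genes Mir25, Mir93 and Mir106b, and whether reads are shared was not checked. The clamp Pcna, which holds DNA polymerase on its template, ran from 6.34 to 7.89 in Vehicle (median 7.07) and from 6.20 to 6.83 in LAGIPRA (median 6.44). In TZP it ran from 6.40 to 7.21 (median 6.82) and in PairFedVehicle from 6.26 to 7.53 (median 7.14). The LAGIPRA samples reached from below the Vehicle range to short of the Vehicle median, and the difference was -0.65 (SE 0.233, limma adjusted p = 0.0625). Pcna and Tyms have named pseudogenes that can share reads.

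Nucleotide synthesis was covered by 4 members. Rrm2, the subunit of ribonucleotide reductase made in S phase, ran from 4.29 to 6.17 in Vehicle (median 5.44) and from 3.99 to 5.02 in LAGIPRA (median 4.51). In TZP it ran from 4.18 to 5.70 (median 4.94), and in PairFedVehicle from 4.01 to 5.91 (median 5.16). Its difference was -0.87 (SE 0.347, limma adjusted p = 0.0894), with more spread than any other S-phase member. Rrm1, the longer-lived large subunit, ran from 5.85 to 6.73 in Vehicle (median 6.28), 5.83 to 6.20 in LAGIPRA (median 6.03), 5.82 to 6.16 in TZP (median 6.05) and 5.71 to 6.35 in PairFedVehicle (median 6.07). Rrm1 was the steadiest member, and it differed by -0.29 (SE 0.115, limma adjusted p = 0.0881). Thymidine kinase Tk1 differed by -0.95 (limma adjusted p = 0.0646) and thymidylate synthase Tyms by -0.18 (95% interval -0.54 to 0.19, limma adjusted p = 0.511).

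**Figure D4:**
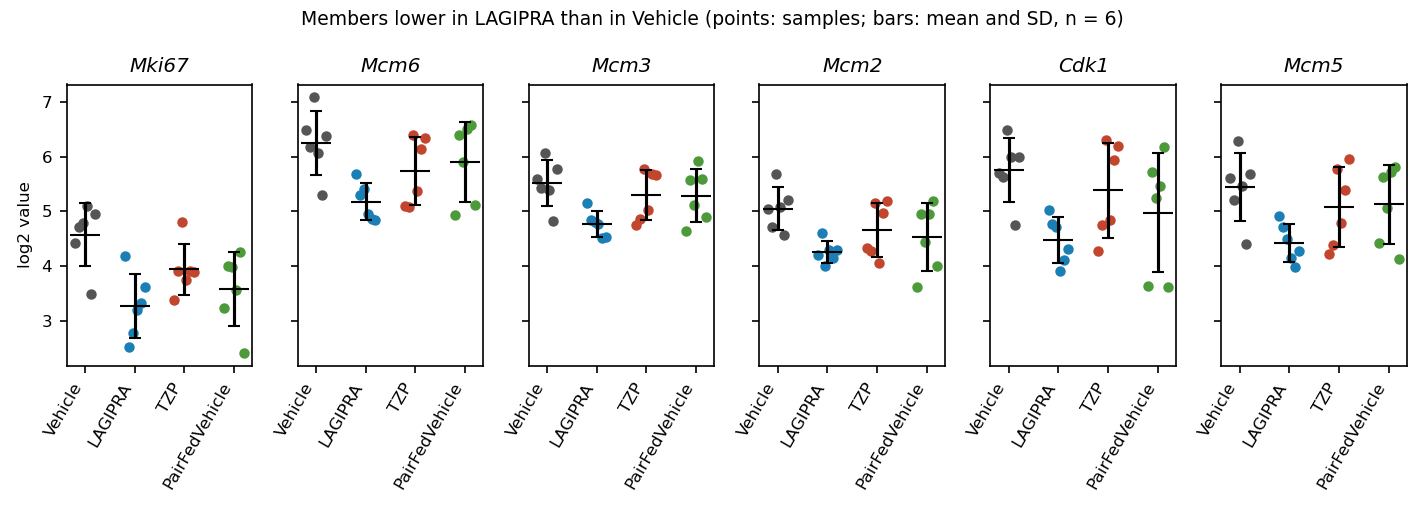
Log2 values of the 6 members lower in LAGIPRA than in Vehicle at an adjusted p under 0.05, in the 4 groups; points are samples in number order, bars are the mean and SD (n = 6). In each gene the lowest Vehicle point, sample 5, reaches into the LAGIPRA range.

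Of the mitotic genes, 2 fell. Mki67 encodes Ki-67, the protein that coats mitotic chromosomes and is stained as a marker of cycling cells. It had a lowest, median and highest value of 3.49, 4.74 and 5.09 in Vehicle and 2.53, 3.26 and 4.18 in LAGIPRA. In TZP these were 3.39, 3.90 and 4.80, and in PairFedVehicle 2.42, 3.77 and 4.26. Vehicle sample 5 was again the only Vehicle sample inside the LAGIPRA range, and LAGIPRA sample 1 was the highest of its group. The difference was -1.31 (SE 0.322, limma adjusted p = 0.0143), a level 0.404 times that of Vehicle.

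Cdk1, the kinase that drives entry into mitosis, ran from 4.75 to 6.49 in Vehicle (median 5.84) and from 3.91 to 5.02 in LAGIPRA (median 4.51). In TZP it ran from 4.27 to 6.30 (median 5.39), and in PairFedVehicle from 3.62 to 6.17 (median 5.36). The PairFedVehicle range enclosed the LAGIPRA range. The LAGIPRA difference was -1.28 (SE 0.425, limma adjusted p = 0.0465), a level 0.411 times that of Vehicle.

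The cyclins that partner Cdk1 did not pass. Ccna2 differed by -1.13 (limma adjusted p = 0.0613) and Ccnb2 by -0.89 (limma adjusted p = 0.195). Ccnb1 ran from 2.39 to 4.98 in Vehicle (median 4.47), 2.58 to 4.34 in LAGIPRA (median 3.01), 2.78 to 4.81 in TZP (median 3.84) and 2.23 to 4.85 in PairFedVehicle (median 4.03). Its lowest Vehicle sample, sample 5, lay below every LAGIPRA sample, and the difference was -0.87 (95% interval -1.91 to 0.17, limma adjusted p = 0.240). Ccnb1 and Ccnb2 have named pseudogenes. Other members also have a gene span that overlaps another gene, and shared reads were not checked there either. These are Ccna2 (Exosc9), Cdc20 (Elovl1), Aurka (Cstf1), Kif20a (Brd8 and Cdc23), Prc1 (Rccd1), Nusap1 (Oip5) and Tk1 (Afmid). Top2a, Kif11 and Tpx2 overlap predicted or microRNA genes. None of the 6 members that passed has an overlap or a named pseudogene.

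Top2a, the topoisomerase that untangles sister DNA, ran from 3.44 to 5.71 in Vehicle (median 5.05), 3.04 to 4.37 in LAGIPRA (median 3.86), 3.28 to 4.54 in TZP (median 4.17) and 2.62 to 4.93 in PairFedVehicle (median 4.31). Apart from Vehicle sample 5, the Vehicle samples lay above all LAGIPRA and TZP samples. The LAGIPRA difference was -1.13 (SE 0.416, limma adjusted p = 0.0692).

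The checkpoint kinase relative Bub1b ran from 3.34 to 5.12 in Vehicle (median 4.59), 3.25 to 4.16 in LAGIPRA (median 3.83), 3.16 to 4.80 in TZP (median 4.06) and 3.25 to 4.85 in PairFedVehicle (median 4.32). It was the steadiest mitotic member and differed by -0.68 (limma adjusted p = 0.134). Of the other regulators, Plk1 differed by -0.94, Aurka by -0.52 and Aurkb by -0.71, and the survivin gene Birc5, a partner of Aurkb in the chromosomal passenger complex, by -1.0. The anaphase-promoting complex genes Cdc20 and Ube2c differed by -0.66 and -0.80. None of these passed, with limma adjusted p from 0.105 to 0.374.

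The motors and spindle genes showed the same direction without passing. The spindle motor Kif11 differed by -0.72, the midzone motors Kif20a and Kif23 by -0.70 and -0.86, and the midzone bundler Prc1 by -0.89. Tpx2 and Nusap1, which bind spindle microtubules, differed by -0.99 and -0.64, and the kinetochore gene Cenpf by -0.62. Their limma adjusted p ran from 0.0827 to 0.384. Of the 23 mitotic members, 3 were below the filter and were not tested. Their means in Vehicle and LAGIPRA were 3.16 ± 0.77 and 2.11 ± 0.64 (SD, n = 6) for the checkpoint kinase Bub1, 3.08 ± 0.85 and 2.37 ± 0.42 for the kinetochore motor Cenpe, and 2.77 ± 0.59 and 2.09 ± 0.57 for the checkpoint kinase Ttk.

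**Figure D5:**
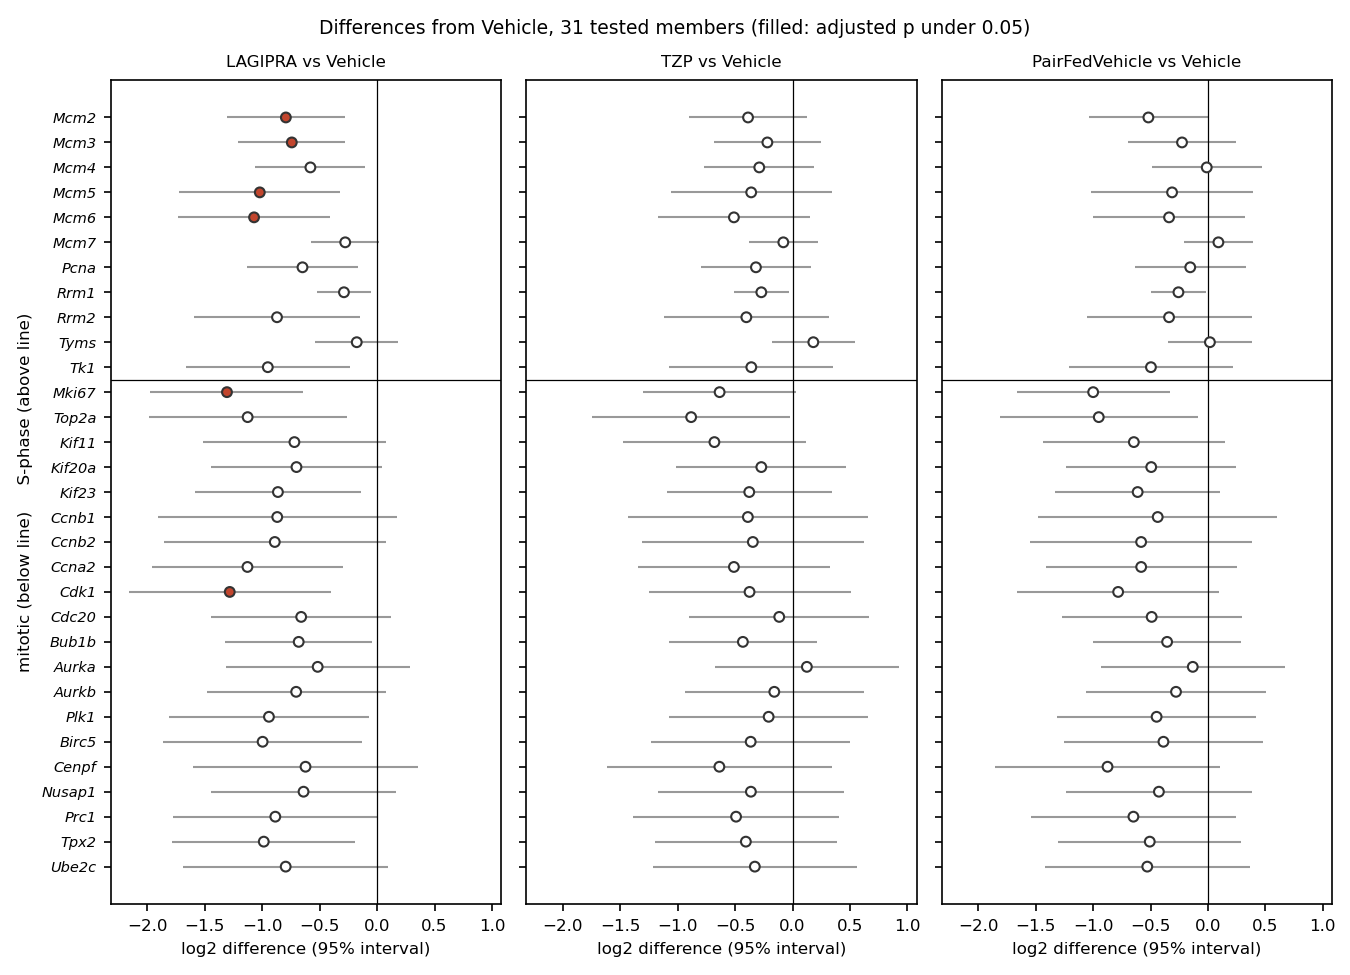
Log2 difference from Vehicle with its 95% interval for the 31 tested members in LAGIPRA, TZP and PairFedVehicle; filled points have an adjusted p under 0.05. Filled points occur in the LAGIPRA panel only (6 members), and nearly all points in the 3 panels lie below 0.

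The count of 6 depended on single samples. It was 19 without Vehicle sample 5, 1 without Vehicle sample 1, 3 or 6 or LAGIPRA sample 4, 5 or 6, and 3 without Vehicle sample 4 or LAGIPRA sample 3. Mki67 passed in all 12 of these fits, with adjusted p from 0.00385 to 0.0377. Cdk1 and Mcm5 lay close to the threshold: without the filter on low values their limma adjusted p was 0.0650 and 0.0656, and without the mean-variance trend, where 4 members passed, 0.0524 for both.

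Other markers moved with the members in this comparison. Over all tested genes, 5.03% were lower in LAGIPRA than in Vehicle. Of 12 macrophage markers, 6 were lower (C1qa, Fcgr1, Mrc1, C1qc, C1qb and Cd68), with a list median of -0.83. Their summed log2 level was 13.1 to 14.3 in Vehicle, 12.5 to 13.7 in LAGIPRA, 12.8 to 13.9 in TZP and 12.9 to 14.4 in PairFedVehicle, and no marker was below the level of 1 read. Within groups, the macrophage mean lay on the same side of its group mean as the mitotic mean in 21 of 24 samples, and so did that of 10 progenitor and fibroblast markers. In LAGIPRA against Vehicle 1 of 9 tested progenitor and fibroblast markers was lower, with a median of -0.32, and their summed level was 11.8 to 12.8 in Vehicle and 11.52 to 12.35 in LAGIPRA. Skeletal muscle markers had a median of 1.88, and 14 of 14 were above 0 with 0 passing. Their summed level was 4.30 to 14.9 in Vehicle and 10.9 to 14.3 in LAGIPRA, and with their mean as a covariate 1 member passed. Within groups, the skeletal muscle mean lay on the same side as the mitotic mean in 14 of 24 samples. The pericyte and smooth muscle mean was on that side in only 2 samples, and the endothelial and brown adipocyte means in 7 each. With the macrophage mean as a covariate, a fit chosen after seeing these values, 0 members and 0 of all tested genes passed, and the LAGIPRA medians were -0.05 for S-phase and 0.23 for mitotic members. Lymphocyte markers were near the filter: 5 of 12 were tested, 0 passed, and their summed level was 5.28 to 7.70 in Vehicle and 5.19 to 6.27 in LAGIPRA. The stand-in for read depth moved too. The level of 1 read before the log was 1.07 ± 0.25 (SD, n = 6) in Vehicle and 1.57 ± 0.45 in LAGIPRA. With that level as a covariate 0 members passed, as did only 36 of all tested genes, and the medians were -0.37 and -0.28. The part of these other cells or of depth in the result was not tested.

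In TZP brown fat, 0 of 31 members passed against Vehicle, where 22% of all tested genes did. The median difference was -0.32 for S-phase and -0.38 for mitotic members, against 0.04 over all tested genes, and 29 of 31 were below 0, as were 45.2% of all tested genes. Vehicle samples also served the LAGIPRA comparison, so these signs are not independent of it. The members with the smallest p were Top2a at -0.88 (95% interval -1.74 to -0.02, limma adjusted p = 0.130) and Rrm1 at -0.27 (95% interval -0.51 to -0.03, limma adjusted p = 0.0908), the 2 members at an unadjusted p under 0.05, where 15.7% of all tested genes were lower. Mki67 differed by -0.63 (95% interval -1.30 to 0.03, limma adjusted p = 0.160) and Mcm6 by -0.51 (95% interval -1.17 to 0.15, limma adjusted p = 0.262). Tyms and Aurka were the 2 members above 0, by 0.18 and 0.12. With the level of 1 read as a covariate the TZP medians were 0.05 for S-phase and 0.13 for mitotic members, so their direction turned. Over all tested genes, 10.3% were lower in TZP than in Vehicle. Of 12 macrophage markers 1 was lower, Mrc1 (-1.08, limma adjusted p = 0.00396), and the list median was -0.50. In other lists, 7 of 10 endothelial markers (median -0.42) and 7 of 7 tested erythroid markers (median -1.20) were lower. Of 9 tested progenitor and fibroblast markers 2 were lower (median -0.32). The summed endothelial level was 12.2 to 12.7 in Vehicle and 11.3 to 11.9 in TZP, and the summed erythroid level 15.3 to 16.7 and 14.2 to 15.7. No endothelial marker, and no erythroid marker in TZP, was on average below the level of 1 read, and the part of these cells was not tested.

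TZP samples split within the group, as the class means show. Cdk1 was 4.27, 4.75 and 4.85 in TZP samples 1, 2 and 4, and 6.30, 5.94 and 6.20 in samples 3, 5 and 6. Mki67 did not follow this split: it was 4.80 in sample 3, but 3.92 and 3.89 in samples 5 and 6, close to 3.91 in sample 2. The stand-in for read depth moved with the split in TZP. The level of 1 read before the log was 1.74, 1.88 and 1.84 in samples 1, 2 and 4. It was 1.44, 1.23 and 0.948 in samples 3, 5 and 6. In LAGIPRA the level was 1.18, 1.22 and 1.21 in samples 1 to 3. It was 2.20, 1.61 and 2.03 in LAGIPRA samples 4 to 6, where the mitotic mean was lower. In Vehicle it was 1.04 in the low sample 5 and 0.853 to 1.55 in the others. In PairFedVehicle it was 1.40 and 1.28 in the low samples 1 and 6, and 1.02 to 1.39 in the others. TZP samples 3 to 6 had a low slope of expression on transcript length, from -0.06 to -0.16, while TZP samples 1 and 2 were at 0.02 each. Mki67 and Cenpf had the longest transcripts of the members (10061 and 11130 bases). Unlike Mki67, Cenpf followed the split, with 2.57, 3.15 and 3.02 in TZP samples 1, 2 and 4. In TZP samples 3, 5 and 6 Cenpf was 4.48, 4.43 and 4.62. The part of depth or transcript length in the split was not tested.

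PairFedVehicle brown fat had 0 of 31 members past the test against Vehicle, where 8.61% of all tested genes passed. The median was -0.26 for S-phase and -0.52 for mitotic members, against 0.02 over all tested genes, and 29 of 31 were below 0, as were 46.7% of all tested genes. At an unadjusted p under 0.05, 4 members were lower (Mki67, Top2a, Rrm1 and Mcm2), against 9.62% of all tested genes. Mki67 came closest, at -1.0 (95% interval -1.67 to -0.33, limma adjusted p = 0.0548). Top2a differed by -0.95 (limma adjusted p = 0.167), while the helicase subunits Mcm6 and Mcm4 differed by -0.34 and -0.01. For Cdk1 the interval was wide (-0.78, 95% interval -1.66 to 0.10). Macrophage markers had a median of -0.22, and 0 of 12 passed.

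In the comparisons among LAGIPRA, TZP and PairFedVehicle no member passed. In TZP against PairFedVehicle the medians were -0.05 for S-phase and 0.18 for mitotic members, and 16.4% of all tested genes passed. The interval for Cdk1 was -0.47 to 1.29 and that for Pcna -0.65 to 0.32, so a rise of Cdk1 by 1.29 lies within what these samples allow. In TZP against LAGIPRA, where only 0.4% of all tested genes passed, 30 of 31 members were above 0, with medians of 0.41 and 0.52, while 47.6% of all tested genes were below 0. With TZP samples 1 and 2 alone these medians were -0.09 and -0.19. Both samples were among the low TZP samples, so lower medians followed from that choice. Cdk1 (0.91, 95% interval 0.03 to 1.79), Mki67 (0.67, 0.01 to 1.34) and Mcm3 (0.52, 0.06 to 0.99) were higher at an unadjusted p under 0.05, against 6.04% of all tested genes, with limma adjusted p from 0.247 to 0.299. In LAGIPRA against PairFedVehicle, where 11.9% of all tested genes passed, the median was -0.50 for S-phase and -0.31 for mitotic members, and 30 of 31 were below 0, as were 51.8% of all tested genes. Here 6 S-phase members (Mcm3, Mcm4, Mcm5, Mcm6, Mcm7 and Pcna) and 0 mitotic members were lower at an unadjusted p under 0.05, against 12.1% of all tested genes. The smallest limma adjusted p was 0.101, for Mcm7. No test compared the classes with each other.

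Other genes of the cycle were read from lists of known genes. Of 32 tested replication genes outside the 34, 1 was lower in LAGIPRA than in Vehicle, the DNA ligase gene Lig1 (3.65 against 4.44, difference -0.79, limma adjusted p = 0.0399), and the list median was -0.37. That count and those that follow for LAGIPRA against Vehicle stand beside 5.03% lower and 8.7% higher among all tested genes. Of 42 other mitotic genes tested, 2 were lower, the contractile ring gene Anln (-0.93, limma adjusted p = 0.0386) and the condensin gene Smc2 (-0.85, limma adjusted p = 0.0437). The securin gene Pttg1, which restrains sister chromatid separation, was higher (7.30 against 6.98, difference 0.32, limma adjusted p = 0.0364). The list median was -0.73, and 41 of 42 differences were below 0. The shares that passed in these 2 lists were no higher than those of all tested genes. At an unadjusted limma p under 0.05, 10 of 32 replication and 17 of 42 mitotic genes were lower, against 13.8% of all tested genes. Genes that move together are not independent counts. In TZP against Vehicle, where 10.3% of all tested genes were lower and 11.7% higher, the helicase cofactor gene Gins4 was higher (0.27, limma adjusted p = 0.0229), as was Pttg1 (0.30, limma adjusted p = 0.0347), and Smc2 was lower (-0.80, limma adjusted p = 0.0412). Rpa2, a subunit of the single-strand binding complex, was lower in LAGIPRA than in PairFedVehicle (-0.40, limma adjusted p = 0.0453).

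Of 27 genes that control passage from G1 to S, 3 were lower and 1 was higher in LAGIPRA than in Vehicle, a share close to the 13.7% of all tested genes that changed. The 3 with the smallest p were Myc, a growth-promoting transcription factor (5.63 against 6.51, difference -0.88, limma adjusted p = 0.00514), the E2F family repressor E2f7 (2.92 against 3.94, difference -1.02, limma adjusted p = 0.0141) and E2f2, which was higher (0.50, limma adjusted p = 0.0275). In TZP, E2f7 was also lower than in Vehicle (-1.19, limma adjusted p = 0.0026), while Lin37 of the DREAM repressor complex and the D-type cyclin Ccnd3 were higher (0.35 and 0.44, limma adjusted p = 0.00507 and 0.00540). In PairFedVehicle, where 3.66% of all tested genes were lower and 4.96% higher, E2f2 and Myc were lower than in Vehicle (-0.73 and -0.64, limma adjusted p = 0.00252 and 0.0179). E2f2 was higher than in PairFedVehicle in both TZP (0.82, limma adjusted p = 0.000656) and LAGIPRA (1.23, limma adjusted p = 7.19e-06), and so was Tfdp1, the partner of E2F proteins (0.24 and 0.26, limma adjusted p = 0.0330 and 0.0316). Cdk4 was lower in LAGIPRA than in PairFedVehicle (-0.30, limma adjusted p = 0.0473). E2f2 moved while the members did not pass in those comparisons. Among 8 erythroid markers, 7 were tested. They had a median of 0.74 in LAGIPRA and -0.86 in TZP against PairFedVehicle, and of 0.52 in LAGIPRA and -0.26 in PairFedVehicle against Vehicle. Their part in the E2f2 values was not tested.

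The brakes of the cycle gave a mixed picture. Of 16 tested Cdk inhibitors and p53 targets, 4 were lower in LAGIPRA than in Vehicle, led by the Cdk4 inhibitor Cdkn2d (-0.36, limma adjusted p = 0.0192), the stress gene Gadd45a (-0.49, limma adjusted p = 0.0343) and Mdm2, which restrains p53 (-0.35, limma adjusted p = 0.0383). In TZP, 3 were lower and 1 was higher than in Vehicle, near the 22% of all tested genes that changed. The inhibitor Cdkn1c rose (0.66, limma adjusted p = 0.00327), and Zmat3 and Btg2 fell (-0.58 and -0.51, limma adjusted p = 0.00450 and 0.00782). In PairFedVehicle, 4 were lower and 2 higher than in Vehicle, led by Cdkn2b (-0.95), Gadd45a (-0.66) and Cdkn2d (-0.42), with limma adjusted p from 0.00748 to 0.00810. Cdkn2b was higher than in PairFedVehicle in TZP (1.04, limma adjusted p = 0.00248) and in LAGIPRA (1.07, limma adjusted p = 0.00210). Against PairFedVehicle, Cdkn1b was lower in TZP (-0.29, limma adjusted p = 0.00146) and Cdkn1a was higher (0.60, limma adjusted p = 0.0107). In LAGIPRA, Sesn2 and Cdkn1b were lower than in PairFedVehicle (-0.56 and -0.18, limma adjusted p = 0.0154 and 0.0358). The list mean lay on the same side of its group mean as the mitotic mean in 11 of 24 samples.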

How the data were processed

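Per the labels' protocols, RNA of brown fat was isolated using TRIzol followed by a lipid column kit, and polyA RNA was selected. The submitters' processing notes name cutadapt 1.9.1 and GSNAP. The sources used here give no build, counter or strand setting. The values as deposited by the authors were taken as log2 values, quantile normalized, with an offset near 1. This was inferred from the values, and the offset does not hold for the few below 0.

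Of 23017 genes, the 25% with the lowest mean (5754, mean below 2.86) were left out and 17263 tested. limma 3.58.1 (R 4.3.3) fitted 1 mean per group over all 24 samples, with empirical Bayes moderation and a mean-variance trend, and Benjamini-Hochberg adjustment with a threshold of 0.05. The step was tested on simulated data. Figures used matplotlib 3.10.9. Depth limits the weak members most, and precision is given by SE and 95% intervals. No samples were identical (same-group r from 0.927 to 0.973).

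The members and all lists were chosen with earlier results of these data known. Values by sample were given for Mki67, Top2a, Pcna and Mcm2, members called in any comparison, those with the smallest p in each class for TZP and LAGIPRA against Vehicle, and those with the largest and smallest spread. Of other lists, up to 3 called genes with the smallest p per comparison were named, and the 6 macrophage markers were named after their values were seen. Length slopes used the longest GENCODE M21 transcript, known for 88.6% of tested genes. Overlapping genes and pseudogenes came from RefSeq. Alternatives covered the filter, trend, normalization, sample weights, groups fitted, a replicate block, covariates for depth and markers, and samples left out.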

Additional observations from a re-analysis of the deposited data

Results flagged for a closer look

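Within groups of 6, a value was singled out where its gap to the nearest sample was large against the range of the group. Of 56 groups examined, 5 were singled out, and chance gives about 1 in 20. In Vehicle, sample 5 was low for Top2a (3.435, others 4.94 to 5.71), Ccnb1 (2.39, others 4.10 to 4.98), Bub1b (3.34, others 4.49 to 5.12) and the mean of the mitotic genes (-0.8293, others 0.47 to 1.21). These 4 are values of the same sample and are not independent of each other. In TZP, sample 3 was high for Mki67 (4.802, others 3.39 to 3.92).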

How the results depend on the processing

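Counts of members past the threshold are given first. For LAGIPRA against Vehicle the count of 6 became 3 with no filter, 4 with no trend, 20 with sample weights, 13 with 2 groups in the fit, 2 with the replicate block, 0 with the 1-read level, the lymphocyte or the macrophage covariate, 1 with the muscle covariate or without the 3 samples lowest in muscle, and 15 at a threshold of 0.1. The samples' numbers do not pair them: 12 of 36 same-number pairs correlated over 0.1 (r from -0.60 to 0.38). With the block Mki67 and Mcm6 passed (adjusted p = 0.0295 and 0.0479), while Cdk1 and Mcm5 did not (0.0626 and 0.0722). Mki67 passed in 9 of the 12 other settings in which it was tested, with adjusted p of 0.111, 0.0682 and 0.349 under the 1-read, lymphocyte and macrophage covariates. For TZP against Vehicle the count of 0 became 2 with the macrophage covariate and 1 at the threshold of 0.1. For PairFedVehicle against Vehicle it became 1 with sample weights, with the muscle covariate, without the 3 samples lowest in muscle and at the threshold of 0.1. It became 6 with the macrophage covariate for TZP against PairFedVehicle, and for LAGIPRA against PairFedVehicle 6 with sample weights and 1 with 2 groups in the fit. The macrophage covariate was chosen after seeing the data. It moved the medians of S-phase and mitotic members to -0.0455 and 0.229 for LAGIPRA against Vehicle and to 0.133 and 0.433 for TZP against Vehicle. With TZP samples 1 and 2 only, the S-phase and mitotic medians were -0.749 and -1.06 against Vehicle. The S-phase and mitotic medians were then -0.562 and -0.552 against PairFedVehicle, and -0.088 and -0.186 against LAGIPRA. TZP samples 1 and 2 were among the low TZP samples in both classes, so lower medians followed from that choice. Leaving out each sample in turn gave counts of 0 to 4 for TZP, 1 to 19 for LAGIPRA and 0 to 2 for PairFedVehicle against Vehicle, 0 to 0 for TZP against PairFedVehicle and against LAGIPRA, and 0 to 1 for LAGIPRA against PairFedVehicle. The S-phase and mitotic medians then ran from -0.477 to -0.186 and -0.624 to -0.198 for TZP, from -0.881 to -0.633 and -1.10 to -0.703 for LAGIPRA, and from -0.364 to -0.137 and -0.790 to -0.270 for PairFedVehicle, each against Vehicle. For TZP against PairFedVehicle they ran from -0.232 to 0.0915 and -0.106 to 0.371, with a sign change in 6 and 2 of 12 fits. They ran from 0.302 to 0.526 and 0.352 to 0.696 for TZP against LAGIPRA, and from -0.648 to -0.355 and -0.521 to -0.144 for LAGIPRA against PairFedVehicle. The cause of these shifts was not tested. The other 221 alternative values of these counts and medians stayed within 1.5 times the count or within the spread between samples.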
